A study of Mus musculus with 24 samples.

Results

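Irf1, Irf2, Irf4 and Irf8 belong to the interferon regulatory factors, transcription factors that share a DNA-binding domain with a cluster of tryptophans. They were described here over 10 groups of mouse leukocytes, formed by 5 cell populations on 2 genetic backgrounds. Members were chosen by name, as all probe sets annotated to these 4 genes. Irf1 (probe set 102401_at), Irf4 (92737_at) and Irf8 (98002_at) were each measured by 1 of the 12422 probe sets tested, which cover 8251 named genes. No probe set was assigned to Irf2 in the annotation used here, so its expression is not analysed here.

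Irf1 is induced by interferon-gamma and activates genes of antigen presentation and cell-autonomous defence. Irf2 binds the same DNA elements and is best known for restraining Irf1 at them. Irf4, induced by antigen receptor signals, and Irf8, induced by interferon-gamma and abundant in myeloid and B cells, form a pair of close relatives that bind DNA with partners such as Spi1, Spib and Batf. Irf4 is needed for effector T cells and plasma cells, and Irf8 for dendritic cells and monocytes as well as for normal B cell development.

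The study profiled mice transgenic for the receptor of the BDC2.5 clone, whose CD4 T cells recognise a pancreatic islet antigen. The labels call the infiltration of the islets (insulitis) aggressive on C57Bl/6-H2g7/g7 (B6g7) and benign on NOD. Total infiltrate, sorted as viable CD45+ pancreatic cells, was measured on 3 arrays from BDC2.5 B6g7 mice of 25, 28 and 24 days and 3 from BDC2.5 NOD mice, all of 25 days. Viable CD4+ cells high for the BDC2.5 clonotype came from the pancreas (2 arrays of B6g7 at 25 and 22 days, 3 of NOD at 24, 24 and 25 days) and from pancreatic lymph nodes (2 of B6g7 at 25 and 22 days, 3 of NOD at 24, 22 and 25 days). Splenic leukocytes (viable CD45+) and splenic NK cells (viable CD45+ Asialo GM1+) had 2 arrays per background each. The labels name no transgene for spleen, "None" for B6g7 NK cells of 6 and 3 weeks, and BDC2.5 for 1 of the 2 NOD NK arrays. They do not give ages for the spleens or NOD NK cells, nor whether the arrays of a group are different mice, so p-values reflect array-to-array spread, which may be technical. Both backgrounds share the H2g7 haplotype, and aggressive and benign disease cannot be told apart from background.

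Values are log2 of the deposited probe set intensity, so a difference of 1 unit is 2-fold. Median intensities of the arrays lay between 35.1 and 39.1. RNA was amplified in 1 round for spleen and in 2 rounds for the other populations, and the 3′ minus 5′ difference of Gapdh control probe sets averaged 0.22 to 0.33 log2 units in spleen against 2.96 to 5.13 elsewhere. Liver transcripts were over 2 log2 units above the median array in 5 arrays: B6g7 infiltrates 1 and 2, B6g7 pancreatic T cells 1, B6g7 lymph node T cells 1 and NOD pancreatic T cells 1. The 3 NOD pancreatic T cell arrays correlated with each other at 0.82 to 0.88 over all probe sets, while arrays within every other group correlated at 0.92 to 0.99. RMA processing is named in the submitters' notes for all B6g7 infiltrates, all NOD pancreatic T cells and all NOD spleens, but for no array of the same populations on the other background. The T cell marker list (7 of 9 genes) averaged 7.80 to 8.19 in 8 of the 10 T cell arrays, but 7.31 and 7.52 in NOD pancreatic T cells 1 and 2, below the 8.10 and 7.81 of NOD spleens. The NK marker list averaged 7.41 to 8.14 in NK arrays against 4.69 to 5.43 in T cell arrays. A granulocyte marker list (8 genes) averaged 8.62 in B6g7 NK array 2 and 9.75 in NOD NK array 2, against 7.21 and 5.41 in the other NK arrays, which goes against a pure NK label.

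The stretches of promoter that hold motifs of interferon and NF-kB signalling are shown for the members that have them, since Irf1 and Irf8 are known targets of interferon-gamma. They are from RefSeq on GRCm38.p6, read 5′ to 3′ on the plus strand, with motif matches in capitals. The motifs searched in the 250 bases before each start, on both strands, were the GAS element of interferon-gamma responses TTCNNNGAA (in 7.02% of 32851 promoters), the IRF element, a pair of GAAA repeats with any 2 bases between them (2.98%), and a kB core GGGANTNCC (3.36%).
Irf1, chr11:53769912-53770013: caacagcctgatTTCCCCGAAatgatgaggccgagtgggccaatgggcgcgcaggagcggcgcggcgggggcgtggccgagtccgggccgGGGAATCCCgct
Irf2, chr8:46739495-46739541: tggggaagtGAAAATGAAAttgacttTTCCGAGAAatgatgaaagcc
Irf8, chr8:120736175-120736225: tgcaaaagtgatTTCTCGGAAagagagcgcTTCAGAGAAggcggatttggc
In Irf1 the capitals are a GAS match 90 to 82 bases before the start, and a kB match 12 to 4 bases before it that fits the pattern on both strands. In Irf8 they are 2 GAS matches, at 171 to 163 and 153 to 145 bases. The Irf2 stretch holds an IRF element at 241 to 232 bases, the only one among the 4 genes, and a GAS match at 224 to 216. Irf2 had a kB match too, GGGATTTCC, at 16 to 8 bases. Irf4 had none of the 3 motifs in its window, nor had the second listed starts of Irf1 and Irf8. A match describes letters in a window and is not a binding site.

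Irf1 was bright in every population and lowest in NK cells. It stood at percentiles of 83.6 to 85.7 among all probe sets in NK arrays, and of 89.1 to 98.6 in the other arrays. In total infiltrate it measured 10.01, 8.82 and 8.77 in B6g7 arrays, against 8.68, 9.15 and 8.64 in NOD arrays. In spleen it measured 8.02 and 8.13 in B6g7, against 8.70 and 8.37 in NOD. B6g7 infiltrate 1, an array with liver transcripts, was the highest Irf1 value of the series. In pancreatic T cells Irf1 was 8.46 and 8.80 in B6g7 and 8.11, 7.36 and 8.41 in NOD, while lymph node T cells had 7.92 and 8.94 in B6g7 and 9.65, 9.39 and 8.83 in NOD. NK cells had 7.16 and 7.08 in B6g7 and 7.08 and 7.20 in NOD, the lowest values of the series. By group mean the order was NOD lymph node T cells (9.29 ± 0.42, SD, n = 3), B6g7 infiltrate (9.20 ± 0.70, n = 3), NOD infiltrate (8.82 ± 0.28, n = 3), B6g7 pancreatic T cells, NOD spleen, B6g7 lymph node T cells, B6g7 spleen, NOD pancreatic T cells (7.96 ± 0.54, n = 3) and then NK cells of both backgrounds. Of the 9 neighbouring pairs in this order, 8 had overlapping arrays, and the 1 gap lay between NOD pancreatic T cells and NOD NK cells. The share of all probe sets without overlap was not computed for that pair.

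Irf4 was highest in lymph node T cells of NOD mice and lowest in NK cells. In total infiltrate it measured 8.34, 8.18 and 8.35 in B6g7, against 7.90, 8.58 and 8.04 in NOD, and in spleen 7.75 and 7.68 in B6g7, against 7.63 and 7.38 in NOD. The infiltrate arrays of each background all lay above their spleens. Between the B6g7 groups 45.6% of all probe sets failed to overlap too, in either direction, and for NOD that share was not computed. Pancreatic T cells had 5.91 and 6.74 in B6g7, against 7.92, 6.56 and 8.35 in NOD. Lymph node T cells had 7.47 and 7.71 in B6g7, against 8.92, 8.90 and 8.06 in NOD. The pancreatic groups overlapped through NOD array 2, while the lymph node groups did not overlap, nor did 22.3% of all probe sets there. NK cells had 5.85 and 5.94 in B6g7 and 5.78 and 5.89 in NOD. The order of means ran from NOD lymph node T cells (8.63 ± 0.49, n = 3), B6g7 infiltrate (8.29 ± 0.10, n = 3) and NOD infiltrate (8.17 ± 0.36, n = 3) through B6g7 spleen, NOD pancreatic T cells (7.61 ± 0.94, n = 3), B6g7 lymph node T cells and NOD spleen to B6g7 pancreatic T cells (6.32 ± 0.59, n = 2) and NK cells. Arrays of neighbours overlapped in 7 of 9 pairs, and the gaps lay between NOD infiltrate and B6g7 spleen, and between NOD spleen and B6g7 pancreatic T cells. For neither gap was the share of all probe sets without overlap computed.

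Irf8 had the widest range of the 3, and its order was unlike that of Irf1 and Irf4. NK cells had 9.68 and 9.47 in B6g7 and 9.22 and 9.33 in NOD, and spleen had 9.53 and 9.54 in B6g7 and 9.59 and 9.45 in NOD. These were the brightest groups. Total infiltrate had 9.08, 8.49 and 8.44 in B6g7 and 9.31, 9.15 and 8.39 in NOD. Pancreatic T cells had 6.24 and 6.45 in B6g7, against 8.39, 9.15 and 7.88 in NOD, and lymph node T cells had 7.17 and 7.21 in B6g7, against 8.12, 7.74 and 7.65 in NOD. At both T cell sites every B6g7 array lay below every NOD array, as arrays of the backgrounds failed to overlap for 10.5% of all probe sets in pancreatic T cells and for 22.3% in lymph node T cells. The order of means was B6g7 NK cells (9.57), B6g7 spleen (9.54), NOD spleen (9.52), NOD NK cells (9.28), NOD infiltrate (8.95 ± 0.49, n = 3), B6g7 infiltrate (8.67 ± 0.36, n = 3), NOD pancreatic T cells (8.47 ± 0.64, n = 3), NOD lymph node T cells (7.83 ± 0.25, n = 3), B6g7 lymph node T cells (7.19) and B6g7 pancreatic T cells (6.34 ± 0.15, n = 2). Neighbours did not overlap in 3 of the 9 pairs: NOD spleen and NOD NK cells, NOD and B6g7 lymph node T cells, and B6g7 lymph node and pancreatic T cells. Beyond the 22.3% for lymph node T cells, the share of all probe sets without overlap was not computed for these pairs.

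**Figure D1:**
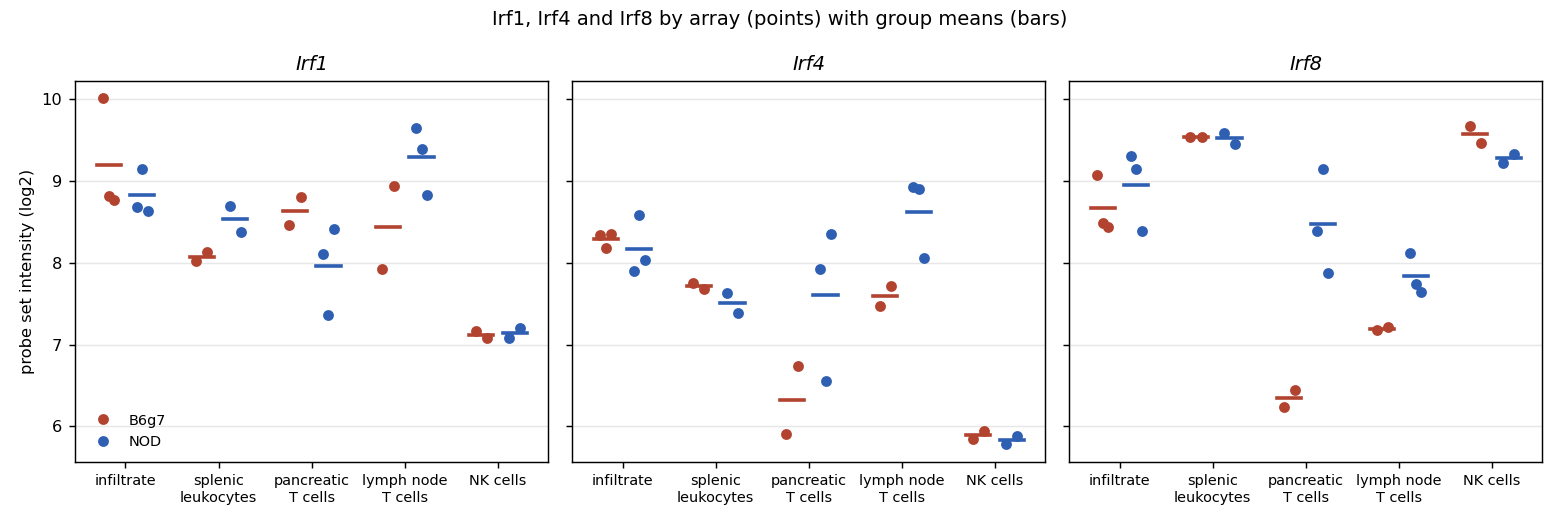
Log2 probe set intensity of Irf1, Irf4 and Irf8 (1 panel each) in 5 populations, with B6g7 in red left of NOD in blue. Each point is 1 array and each bar a group mean; Irf8 in pancreatic T cells lies between 6.24 and 6.45 in B6g7 and between 7.88 and 9.15 in NOD, and Irf1 and Irf4 are lowest in NK cells of both backgrounds.

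The comparison of backgrounds within a population asks what differs between B6g7 and NOD. For infiltrate and BDC2.5 T cells the backgrounds also differ in aggressive and benign insulitis. For spleen and B6g7 NK cells the labels name no BDC2.5 transgene. In pancreatic BDC2.5 T cells, Irf8 was lower in B6g7 by 4.38-fold (6.34 ± 0.15 in B6g7, n = 2, and 8.47 ± 0.64 in NOD, n = 3; log2 difference -2.13, SE 0.31, 95% interval -2.77 to -1.48, limma adjusted p = 0.00556). It was the 1 member of 3 that passed an adjusted p of 0.05 there, where 0.145% of all probe sets passed. Irf4, with a difference of -1.29 (SE 0.39, limma adjusted p = 0.358), and Irf1, with 0.67 (SE 0.38, limma adjusted p = 0.860), did not pass. The Irf8 call was lost without B6g7 pancreatic T cell array 1, one of the arrays with liver transcripts (-2.02, limma adjusted p = 0.131), without all 5 arrays with liver transcripts (-2.07, limma adjusted p = 0.280), with arrays weighted by their quality (-1.79, limma adjusted p = 0.113) and when only the compared groups were fitted (limma adjusted p = 1). RMA is named for the 3 NOD arrays of this contrast and not for the 2 B6g7 arrays, which cannot be told apart from background here. The Irf4 difference passed without NOD array 2 (-1.81, limma adjusted p = 0.0220). It also passed when runs of nearby serial codes, which the labels give for most arrays without their meaning, entered as blocks (-2.19, limma adjusted p = 0.00976). NOD array 2 is the only array of its run outside the infiltrates, and these share no run with any other array. The block setting thus gives array 2 no part in this difference and is not separate from leaving it out.

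Irf8 is abundant in macrophages, dendritic cells and B cells, so their markers are given for the same T cell arrays. The macrophage and dendritic cell list (11 of 12 genes measured) averaged 5.22 and 5.27 in B6g7 pancreatic T cells, against 5.98, 5.57 and 5.34 in NOD, with summed intensities of 556 to 620 in B6g7 and 611 to 1007 in NOD. All 11 genes had a negative difference, with a median of -0.40 against -0.01 over all probe sets, and none passed. The macrophage marker Lyz2 measured 4.89 and 3.91 in B6g7 and 5.48, 4.18 and 3.58 in NOD. The 6 infiltrate arrays had 7.97 to 9.54. Means of other genes in this list were further apart. Cd83 measured 4.31 to 4.98 in B6g7 and 5.16 to 6.43 in NOD, against 6.94 to 8.01 in infiltrates. Cd68 measured 4.73 to 5.62 in B6g7 and 5.40 to 5.80 in NOD, and Adgre1 4.76 to 4.91 and 4.85 to 5.58. The part of such cells in the Irf8 difference was not tested. The B cell list (10 of 11 genes) averaged 5.24 and 5.43 in B6g7 and 5.27 to 5.29 in NOD, and the B cell receptor gene Cd79b lay between 5.38 and 5.97 in all 5 arrays, against 9.19 to 10.31 in infiltrates. Acinar and islet transcripts (8 of 12 measured) had a median difference of 0.39, and none passed. The T cell list averaged 8.03 and 7.80 in B6g7 and 7.31, 7.52 and 8.16 in NOD. In bulk samples such as these, fewer cells of a type and less RNA per cell cannot be told apart.

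In the other populations no member passed between backgrounds. Total infiltrate differed by 0.38 for Irf1, 0.12 for Irf4 and -0.28 for Irf8 (limma adjusted p of 0.999 for each), with overlapping arrays throughout, where 0.274% of probe sets passed. In spleen the differences were -0.46, 0.21 and 0.02, where 0.0725% of probe sets passed. Arrays of the backgrounds did not overlap for Irf1 and Irf4 there, nor for 26.0% of all probe sets, and with 2 arrays a side the intervals reached from -1.33 to 0.41 and from -0.69 to 1.11. Lymph node T cells had lower means in B6g7 for all 3 members, by -0.86 for Irf1, -1.03 for Irf4 and -0.64 for Irf8 (limma adjusted p of 0.688, 0.589 and 0.724, where 0.129% passed). NK cells differed by -0.02, 0.06 and 0.29, where 0.0483% passed; Irf8 did not overlap there, nor did 30.7% of all probe sets. Averaged over the 5 populations, Irf8 was lower in B6g7 by -0.55 (SE 0.14, limma adjusted p = 0.0759), Irf4 differed by -0.39 (limma adjusted p = 0.739) and Irf1 by -0.06, and 1.17% of probe sets passed. The Irf8 average passed with array weights (-0.53, limma adjusted p = 0.00596) or runs of serial codes (-0.59, limma adjusted p = 0.00805), and without B6g7 infiltrate 1, NOD infiltrate 3 or NOD pancreatic T cells 3. The Irf4 average passed with array weights (-0.52, limma adjusted p = 0.0334).

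**Figure D2:**
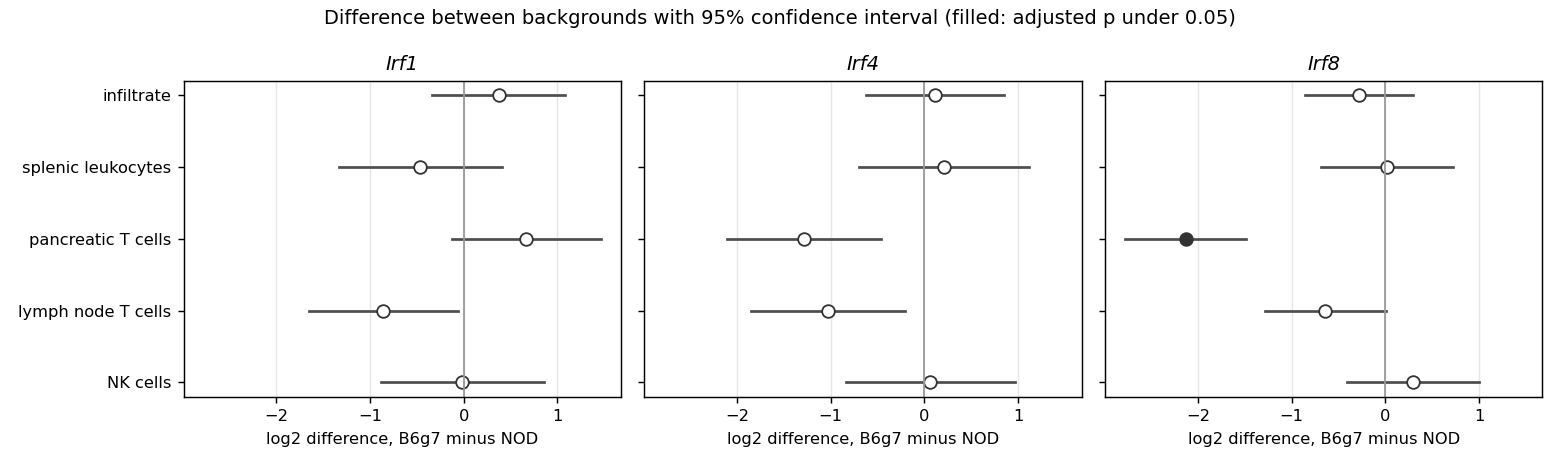
Log2 difference of B6g7 minus NOD in each population for Irf1, Irf4 and Irf8, with 95% confidence intervals from the fit over all arrays; filled points passed an adjusted p of 0.05. Irf8 in pancreatic T cells, at -2.13, is the 1 filled point of 15, and the points of lymph node T cells lie at -0.86, -1.03 and -0.64.

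T cells of the pancreas and of the draining node carry the same receptor, so the comparison of sites asks what differs between the 2 organs. Irf4 was lower in the pancreas in both pairs of same-numbered B6g7 arrays, by -1.57 and -0.97, and in NOD by -1.01 and -2.34 in pairs 1 and 2 but not in pair 3, at 0.30. Irf8 differed by -0.94 and -0.77 in the B6g7 pairs, against 0.27, 1.41 and 0.23 in the NOD pairs. Every B6g7 pair was thus lower in the pancreas and every NOD pair higher. The pairs were formed by replicate number, which the labels do not explain. Ages matched within B6g7 pairs 1 (25 days) and 2 (22 days) and NOD pairs 1 (24 days) and 3 (25 days), but not NOD pair 2. Where ages matched, the serial codes of the pair fell in the same run. The labels do not say that a pair shares mice. Unpaired, the NOD arrays of the sites overlapped in Irf8, with pancreatic array 3 at 7.88 and lymph node array 1 at 8.12. Irf1 differed by 0.54 and -0.14 in B6g7 pairs and by -1.53, -2.03 and -0.42 in NOD pairs.

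None of these differences passed over all probe sets. In B6g7 the fitted differences between sites were 0.20 for Irf1, -1.27 for Irf4 and -0.85 for Irf8 (limma adjusted p of 0.9999 each), and 0% of probe sets passed, while 81 had an unadjusted limma p under 0.05. In NOD they were -1.33 for Irf1, -1.02 for Irf4 and 0.64 for Irf8 (limma adjusted p of 0.110, 0.147 and 0.234), and 0.0161% passed. NOD pancreatic array 3 decided this: without it all 3 members passed, with -1.55 for Irf1 (limma adjusted p = 0.00971), -1.39 for Irf4 (0.0124) and 0.93 for Irf8 (0.0267), and 1849 probe sets were called in place of 2. Of the NOD pancreatic arrays then left, array 1 carries liver transcripts, and array 2 had the largest Gapdh 3′ minus 5′ difference of the T cell arrays (4.87, against 2.78 to 3.91). The macrophage and dendritic cell list averaged 5.98 and 5.57 in these arrays, 5.34 in array 3 and 5.30 to 5.39 in NOD lymph node T cells; its part in the site difference of Irf8 was not tested. The test of whether the site difference itself differed between backgrounds gave -1.49 for Irf8 (SE 0.43), 1.53 for Irf1 (SE 0.53) and -0.25 for Irf4, all at a limma adjusted p of 0.999. There 0% of probe sets passed, and 351 had an unadjusted limma p under 0.05. The NOD arrays of number 2 came from mice of 24 days (pancreas) and 22 days (lymph node). RMA is named for the 3 NOD pancreatic arrays and for no NOD lymph node array, which cannot be told apart from site.

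**Figure D3:**
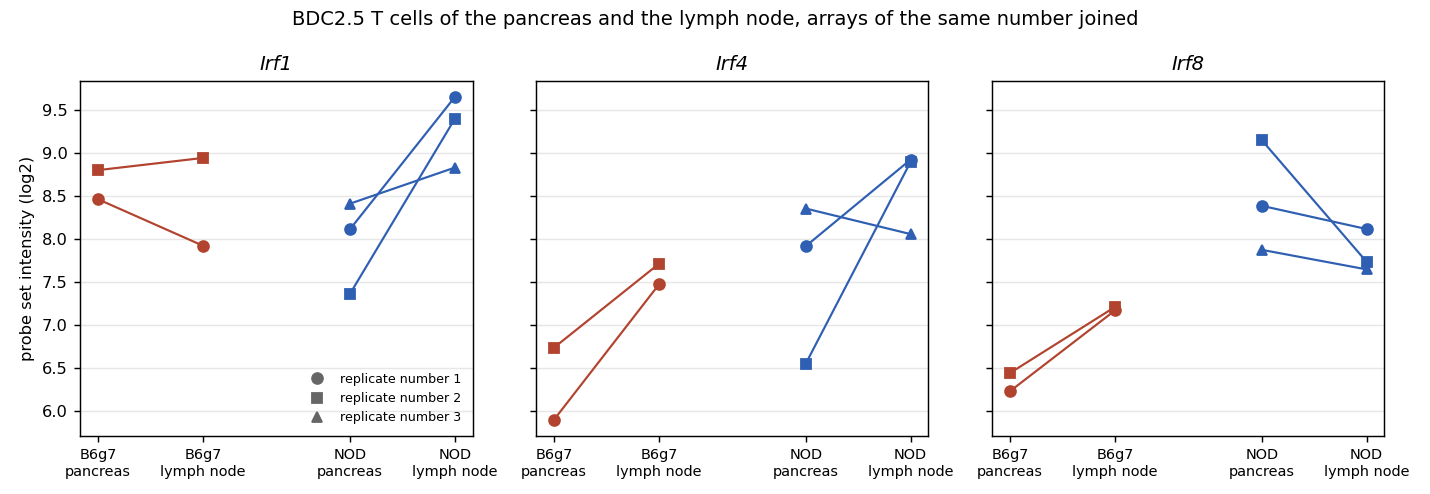
Log2 probe set intensity of Irf1, Irf4 and Irf8 in BDC2.5 T cells, pancreas left of lymph node for each background, with lines joining arrays that share a replicate number. Irf8 is lower in the pancreas in both B6g7 pairs (-0.94 and -0.77) and higher there in all 3 NOD pairs (0.23 to 1.41). The labels do not say that the numbers pair arrays, and unpaired the NOD arrays of the sites overlap in Irf8.

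Total infiltrate holds the BDC2.5 T cells together with B cells, macrophages and others, and was set against the T cells sorted from the same organ. In B6g7, Irf8 was higher in infiltrate by 5.01-fold (8.67 ± 0.36, n = 3, against 6.34 ± 0.15 in T cells, n = 2; log2 2.33, SE 0.31, limma adjusted p = 1.58e-04) and Irf4 by 3.91-fold (8.29 ± 0.10 against 6.32 ± 0.59; log2 1.97, SE 0.39, limma adjusted p = 0.00750). These were 2 of 3 members, where 2.71% of probe sets passed, and neither had overlapping arrays, as was so for 29.0% of all probe sets. Irf1 differed by 0.57. In NOD the differences were 0.86 for Irf1, 0.56 for Irf4 and 0.48 for Irf8 (limma adjusted p of 0.229, 0.498 and 0.455), none passed, and 3.23% of probe sets did. With runs of serial codes Irf1 passed in B6g7 (2.09, limma adjusted p = 0.0256), and Irf1 (1.61, limma adjusted p = 0.0183) and Irf4 (1.64, limma adjusted p = 0.00636) passed in NOD. NOD pancreatic T cell array 2 alone linked the runs of the infiltrates to the other groups, so these values rest on it. Both backgrounds had the markers of other cells higher in infiltrate: 7 and 8 of 10 B cell genes passed in B6g7 and NOD, and 6 of 11 macrophage and dendritic cell genes in each. NK markers passed for 6 of 7 genes in B6g7 and 2 of 7 in NOD, and plasma cell markers passed for 0 of 5 in B6g7 and 1 of 5 in NOD. The part of these cells in the Irf8 and Irf4 differences was not tested. RMA is named for all B6g7 infiltrates and all NOD pancreatic T cells, and for no B6g7 pancreatic T cells or NOD infiltrate. Processing thus cannot be told apart from the compared groups on either background. Without the 5 arrays with liver transcripts, neither Irf8 (1.99, limma adjusted p = 0.154) nor Irf4 (1.61, limma adjusted p = 0.595) passed, and without B6g7 pancreatic T cell array 1 Irf4 did not (1.55, limma adjusted p = 0.232).

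Against spleen of the same background, infiltrate had higher means of Irf1 and Irf4 and lower means of Irf8. In B6g7 the differences were 1.13 for Irf1 (limma adjusted p = 0.0840), 0.58 for Irf4 (0.464) and -0.87 for Irf8 (0.101), where 7.58% of probe sets passed. Arrays did not overlap for any of the 3, nor for 45.6% of all probe sets. In NOD they were 0.29, 0.67 and -0.57 (limma adjusted p of 0.733, 0.346 and 0.292), where 9.12% passed. No member passed, and the 1 round of amplification in spleen cannot be told apart from the tissue. Nor can RMA, named for all B6g7 infiltrates and NOD spleens, and for no B6g7 spleen or NOD infiltrate. Several settings brought calls in B6g7: quantile normalization for Irf1 (limma adjusted p = 0.0450), array weights for Irf1 and Irf8 (0.00674 and 8.02e-05), the compared groups alone for Irf4 (0.0463) and runs of serial codes for all 3. In NOD, Irf4 passed with array weights (0.74, limma adjusted p = 0.0246) and runs of serial codes (2.16, limma adjusted p = 0.00967), and Irf8 with those runs (-1.64, limma adjusted p = 0.00475). No run of codes held both infiltrate and spleen arrays. NOD pancreatic T cell array 2 alone linked the runs of the infiltrates to the other groups, so the values with runs rest on it. B cell markers were lower in infiltrate, 9 of 10 in B6g7 and 8 of 10 in NOD. Macrophage and dendritic cell markers had median differences of 0.55 in B6g7 and 0.53 in NOD. Of these 11 genes, 1 passed as higher in B6g7 and 3 in NOD, and 1 passed as lower in each. The part of these cells in the result was not tested. The difference between backgrounds in this contrast was 0.84 for Irf1, -0.09 for Irf4 and -0.30 for Irf8 (limma adjusted p = 0.999), where 0.0403% of probe sets passed.

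Between splenic NK cells and lymph node T cells, averaged over backgrounds, all 3 members differed. Irf1, at 7.13 in NK cells and 8.86 in T cells, was 3.32-fold lower in NK cells (log2 -1.73, SE 0.28, limma adjusted p = 3.78e-04). Irf4, at 5.86 in NK cells and 8.11 in T cells, was 4.75-fold lower (log2 -2.25, SE 0.29, limma adjusted p = 4.29e-05), and Irf8, at 9.43 in NK cells and 7.51 in T cells, was 3.76-fold higher (log2 1.91, SE 0.23, limma adjusted p = 1.78e-05). The background is wide here, since 15.2% of probe sets passed. All 3 calls held in each of the 9 fits that left out 1 array, among them those without an NK array rich in granulocyte transcripts, while with runs of serial codes Irf1 did not pass (-1.32, limma adjusted p = 0.0662). Irf8 was 9.68 and 9.22 in the NK arrays with fewer granulocyte transcripts, against 9.47 and 9.33 in those with more. Granulocyte (6 of 8), B cell (7 of 10), plasma cell (3 of 5) and macrophage and dendritic cell genes (7 of 11, with 1 lower) also passed as higher in NK arrays; their part in the Irf8 difference was not tested. The NK and T cell groups differ in organ as well as in cell type. BDC2.5 is named for all T cell arrays, but among NK arrays for 1 of the 2 of NOD only. NK ages are given for B6g7 alone, 6 and 3 weeks, against 22 to 25 days in the T cells. RMA is named for the 2 B6g7 NK arrays and 1 of the 2 NOD NK arrays, and for no lymph node T cell array.

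The other family members give the frame for these levels. Irf3, Irf5, Irf7 and Irf9 were measured too, and none of these 4 passed between backgrounds in any population. Irf5, which drives inflammatory cytokine genes in macrophages and B cells, was higher in infiltrate than in pancreatic T cells, by 3.996-fold in B6g7 (log2 1.999, limma adjusted p = 1.90e-06) and 3.89-fold in NOD (log2 1.96, limma adjusted p = 4.54e-07). Irf5 was thus higher in infiltrate on both backgrounds, at 5.10 and 5.70 in B6g7 pancreatic T cells and 5.77, 5.72 and 5.70 in NOD pancreatic T cells. Irf5 was lower in B6g7 infiltrate than in B6g7 spleen (log2 -0.63, limma adjusted p = 0.0416) and higher in NK cells than in lymph node T cells (0.95, limma adjusted p = 1.03e-04). Irf9, a subunit of the factor that type I interferon activates, was lower in NK cells than in lymph node T cells (-0.67, limma adjusted p = 0.0341).

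**Figure D4:**
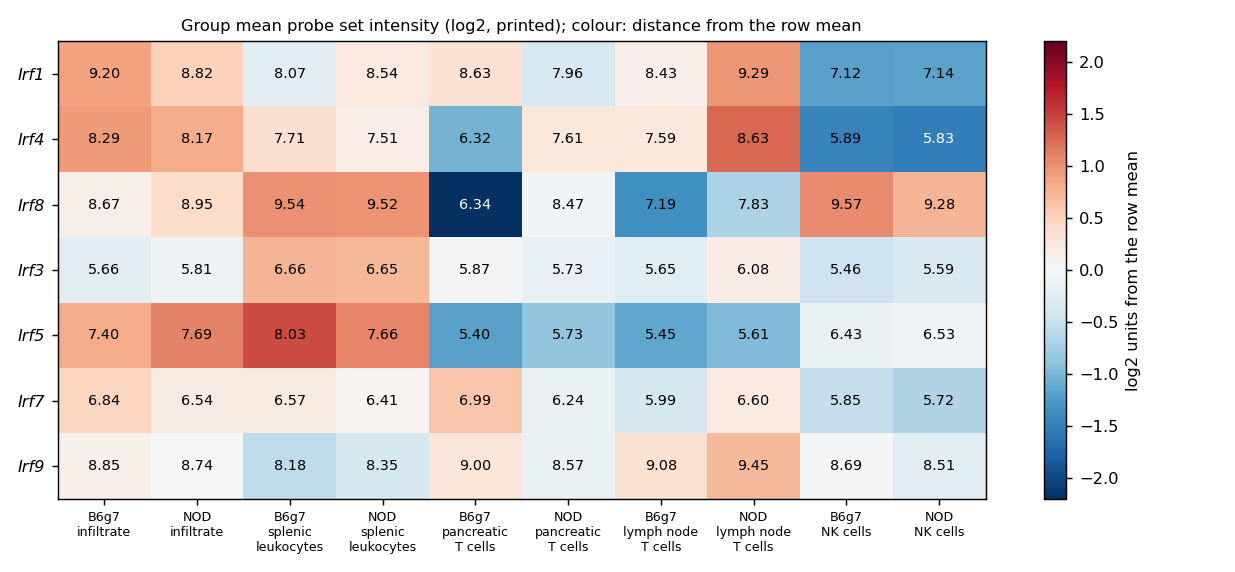
Group means of log2 probe set intensity for 7 interferon regulatory factors (rows, the 3 measured members on top) in the 10 groups (columns, B6g7 left of NOD); colour gives the distance from the row's own mean, red above and blue below. Irf8 has its lowest mean in B6g7 pancreatic T cells (6.34) and Irf5 is low in all 4 T cell groups (5.40 to 5.73).

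Signals that induce the members were described by a list of 16 interferon receptors and signalling genes, 13 of them measured. None passed between backgrounds, and the median difference in pancreatic T cells was 0.16, against -0.01 over all probe sets. Ifng, the interferon that induces Irf1 and Irf8, was 7.93-fold higher in B6g7 infiltrate than in B6g7 spleen (log2 2.99, SE 0.45, limma adjusted p = 3.71e-04), with 5.68, 6.33 and 6.48 in infiltrate and 3.27 and 3.08 in spleen. The spleen values are dim: array medians were 35.1 to 39.1 and the lowest intensity 5.70, all linear. The size of the fold is thus uncertain, and spleen had 1 round of amplification against 2. Jak2, a kinase of the interferon-gamma receptor, was higher in infiltrate than in spleen in B6g7 (1.13, limma adjusted p = 0.00890) and NOD (1.39, limma adjusted p = 0.00173). These were the passing genes of the list in that contrast, 2 of 13 in B6g7 and 1 of 13 in NOD, where 7.58% and 9.12% of all probe sets passed. In NK cells against lymph node T cells, Jak2 was lower (-1.42, limma adjusted p = 5.47e-05) and the receptor chain Ifngr1 higher (0.85, limma adjusted p = 0.00257).

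Of 11 DNA-binding partners of Irf4 and Irf8, 10 were measured and none passed between backgrounds. Spib, an Ets factor of B cells and plasmacytoid dendritic cells, was higher in infiltrate than in pancreatic T cells in B6g7 (1.55, limma adjusted p = 3.85e-04) and NOD (1.59, limma adjusted p = 7.67e-05), and lower than in spleen in both (-1.61 and -0.85, limma adjusted p of 1.50e-04 and 0.0237). Spi1, the myeloid and B cell factor PU.1, was higher in NOD infiltrate than in NOD pancreatic T cells (by 1 log2 unit, limma adjusted p = 0.00305), lower in B6g7 infiltrate than in B6g7 spleen (-0.85, limma adjusted p = 0.0131) and higher in NK cells than in lymph node T cells (0.92, limma adjusted p = 3.88e-04). Spi1 measured 5.45 and 5.78 in B6g7 pancreatic T cells and 5.49, 6.17 and 5.59 in NOD, so the groups that differed in Irf8 overlapped in this partner. Batf, the partner of Irf4 in activated T cells, was lower in NOD infiltrate than in NOD spleen (-0.51, limma adjusted p = 0.0341) and in NK cells than in lymph node T cells (-0.74, limma adjusted p = 1.15e-04), as was the calcium-regulated factor Nfatc1 in the second contrast (-0.68, limma adjusted p = 0.0133).

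Genes described as needing Irf1 (15 of 16 measured) did not pass between backgrounds in any population. Gbp2, an interferon-induced GTPase, was 2.72-fold higher in B6g7 infiltrate than in B6g7 spleen (1.44, limma adjusted p = 0.0474), and the chemokine Cxcl10 was higher in infiltrate of both backgrounds (0.97 in B6g7 and 0.94 in NOD, limma adjusted p of 0.0383 and 0.0416). Ciita, the master regulator of MHC class II, was lower in infiltrate than in spleen (-0.87 in B6g7 and -1.27 in NOD, limma adjusted p of 0.00739 and 2.81e-04). The list thus had 2 genes up and 1 down of 15 in B6g7, and 1 up and 1 down in NOD, where 7.58% and 9.12% of all probe sets passed. Casp1, the inflammasome protease, was higher in infiltrate than in pancreatic T cells in B6g7 (2.25, limma adjusted p = 1.22e-05) and NOD (1.51, limma adjusted p = 2.63e-04). In NK cells against lymph node T cells, where Irf1 was lower, 3 of the 15 were lower and 2 higher, where 15.2% of all probe sets passed. The immunoproteasome subunit Psmb9 (-2.18, limma adjusted p = 6.39e-06), Gbp2 (-1.74, limma adjusted p = 0.00105) and the peptide transporter Tap1 (-0.82, limma adjusted p = 0.0343) were lower, while the adhesion molecule Vcam1 (4.93, limma adjusted p = 1.22e-08) and Casp1 (1.31, limma adjusted p = 6.00e-05) were higher.

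Genes of T cell receptor activation, the signal that induces Irf4, were measured for 9 of 10. In pancreatic T cells all 9 had a negative difference of B6g7 minus NOD, with a median of -0.67 against -0.01 over all probe sets, and none passed. The largest was that of Tnfrsf4, the costimulatory receptor OX40, at -1.27 (SE 0.31, limma adjusted p = 0.198), with 7.34 and 7.09 in B6g7 and 9.05, 8.82 and 7.60 in NOD. In lymph node T cells 2 of 9 had a positive difference, with a median of -0.39. Tnfrsf4 was the 1 gene of the list that passed in NOD infiltrate against NOD pancreatic T cells, where 3.23% of all probe sets passed. It was lower in infiltrate (-1.04, limma adjusted p = 0.0488). The order of NOD pancreatic arrays in Tnfrsf4 was not that of Irf4, which was lowest in array 2. In NK cells the immediate early gene Egr1 (-1.80, limma adjusted p = 0.00518), the inhibitory receptor Ctla4 (-1.47, limma adjusted p = 0.00254) and the nuclear receptor Nr4a1 (-0.92, limma adjusted p = 0.0306) were lower than in lymph node T cells. There 15.2% of all probe sets passed. Myc, a growth regulator, was lower in infiltrate than in spleen (-1.04 in B6g7 and -1.29 in NOD, limma adjusted p of 0.0446 and 0.0117).

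The pattern of each member over the 10 group means was compared with 2918 genes whose means span at least 1 log2 unit. The correlations are descriptions over 10 points that share amplification and cell type, and carry no p. Irf1 was most like Susd6 (r = 0.978), Npc2, Tbpl1, Bcap31 and Itpkb (0.971), all 5 highest in NOD lymph node T cells and lowest in NK cells. Irf4 was most like Ganab (0.958), Senp3, Calu, Ppm1g and Phtf1 (0.942), also lowest in NK cells. Irf8 was most like Snx9 (0.902), Sh3bgrl, Rhob, Prpf19 and Serp1 (0.878), and its closest match was weaker than that of the other members. Among the members, Irf1 and Irf4 correlated at 0.82, Irf1 and Irf8 at -0.44 and Irf4 and Irf8 at -0.07, while Irf8 and Irf5 correlated at 0.76.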

How the data were processed

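RNA of sorted mouse leukocytes was measured on 24 oligonucleotide arrays in 10 groups. The deposited values are 1 table of linear probe set intensity. The submitters' processing notes name RMA for 11 arrays; how the other 13 were processed, and the version and settings of RMA, are not given in the sources used here. With a lowest deposited intensity of 5.70, log2 was taken without a pseudocount. Of 12488 probe sets, 66 were controls and 12422 were tested. The platform annotation, updated through RefSeq GRCm38.p6, gave 10833 of them exactly 1 gene, 396 several and 1193 none. A gene is represented by its brightest probe set. Precision is limited by the 2 or 3 arrays per group.

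One limma model (version 3.58.1, R 4.3.3) of the 10 group means, with 14 residual degrees of freedom, gave 15 comparisons. Each was adjusted over all probe sets by Benjamini-Hochberg. An adjusted p under 0.05 passed, two-sided. The code was tested on simulated data. Members and gene lists were chosen with earlier results of these data known. Up to 4 passing genes per list and comparison were named, and for each member the 5 genes most like it by Pearson correlation over group means.

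Same-numbered arrays of pancreatic and lymph node T cells deviated together in NOD mice (correlations of 0.34, 0.36 and 0.29), and are set side by side as pairs here. In B6g7 the correlation was 0.79 for both numbers. With 2 arrays per site the deviations mirror each other, and array 1 of both sites carried liver transcripts. Same-numbered infiltrate arrays of the 2 backgrounds, which cannot share mice, gave 0.42, 0.0033 and 0.55. The correlations therefore do not show that the numbers pair arrays. What a number stands for is not in the labels. Alternatives were quantile normalization, median centring, a filter on the 40% dimmest probe sets, a trended prior with robust estimation, array weights, the compared groups alone, 1 probe set per gene, a replicate block, runs of serial codes (nearby codes in the labels), no arrays with liver transcripts, the liver mean as a covariate, and each array left out in turn.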

Additional observations from a re-analysis of the deposited data

Results flagged for a closer look

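Irf8 differed in opposite directions between T cell sites on the 2 backgrounds, with an interaction of -1.49 (limma adjusted p = 0.999). Both same-numbered B6g7 pairs were lower in the pancreas and all 3 NOD pairs higher, but the labels do not say that numbers pair arrays. Unpaired, the NOD arrays of the 2 sites overlapped. Between backgrounds, Irf8 was lower in B6g7 without overlap in pancreatic T cells (-2.13) and lymph node T cells (-0.64), but higher without overlap in NK cells (0.29). Irf1 differed without overlap in opposite directions in pancreatic T cells (0.67) and spleen (-0.46). Irf4 did so in lymph node T cells (-1.03) and spleen (0.21). Differences between populations in these background effects were not tested, except that of Irf8 between T cell sites. Of these background differences that of Irf8 in pancreatic T cells passed and the other 6 did not, while arrays failed to overlap for 26.0% of all probe sets in spleen, 10.5% in pancreatic T cells, 22.3% in lymph node T cells and 30.7% in NK cells.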

How the results depend on the processing

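Of 819 values of single members under an alternative, 763 kept their direction and side of the threshold, 25 passed newly, 9 were lost and 22 turned sign, the last all for differences that had not passed. The count of members called between backgrounds in pancreatic T cells (1) was 0 with array weights, with the compared groups only and without arrays with liver transcripts, 2 with runs of serial codes, and 0 to 2 when 1 array was left out. For the average of backgrounds (0) it was 2 with array weights, 1 with the replicate block and with runs of serial codes, and 0 to 1 when 1 array was left out. For B6g7 infiltrate against spleen (0) it was 1 with quantile normalization, 2 with array weights, 1 with the compared groups only and 3 with runs of serial codes. For NOD infiltrate against spleen (0) it was 1 with array weights and 2 with runs of serial codes. For B6g7 infiltrate against pancreatic T cells (2) it was 1 with the replicate block, 3 with runs of serial codes, 0 without arrays with liver transcripts and 1 to 2 when 1 array was left out. For NOD infiltrate against pancreatic T cells (0) it was 2 with runs of serial codes, and for NOD T cell sites (0) it was 0 to 3 when 1 array was left out. Causes were not tested. The serial code setting leaves out the 2 arrays without a code, B6g7 NK array 2 and NOD lymph node T cell array 2. In that setting the infiltrates are linked to the other groups through NOD pancreatic T cell array 2 alone.

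With the replicate block, Irf8 averaged over populations passed (-0.63, limma adjusted p = 0.00891) and Irf4 in B6g7 infiltrate against pancreatic T cells was lost (1.94, limma adjusted p = 0.0517), although those numbers were not shown to pair arrays. The block changed no other call, including those between NOD T cell sites (Irf1 -1.33, limma adjusted p = 0.129), and gave the Irf8 interaction of background and site as -1.69 (limma adjusted p = 0.0585).

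Signs turned as follows. Irf1 between backgrounds was -0.055 in infiltrate and 0.0065 on average without arrays with liver transcripts, and -0.10 in pancreatic T cells and 0.023 in NK cells with runs of serial codes. Leaving out 1 array gave -0.031 to 0.59 in infiltrate, -0.075 to 0.044 in NK cells and -0.16 to 0.044 on average. Irf1 between B6g7 T cell sites was -0.14 without arrays with liver transcripts and -0.31 to 0.71 leaving out 1 array, and in B6g7 infiltrate against pancreatic T cells -0.032 without arrays with liver transcripts. Irf4 between backgrounds in infiltrate was -0.042 with array weights and -0.020 to 0.32 leaving out 1 array. Its interaction with infiltrate or spleen was -0.23 to 0.11, and that with T cell site 0.40 with the replicate block, 0.20 without arrays with liver transcripts and -0.78 to 0.16 leaving out 1 array. Irf8 was -0.053 to 0.086 between backgrounds in spleen leaving out 1 array, and -0.0033 in NOD infiltrate against pancreatic T cells with runs of serial codes.

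Counts of probe sets called moved with the setting. Over all alternatives other than single arrays left out they were 6 to 302 for infiltrate (34 in the report), 2 to 66 for spleen (9), 0 to 314 for pancreatic T cells (18), 1 to 143 for lymph node T cells (16), 0 to 67 for NK cells (6), 106 to 340 for the average (145), 613 to 4283 and 663 to 3027 for B6g7 and NOD infiltrate against spleen (942 and 1133), 95 to 3701 and 86 to 3198 for B6g7 and NOD infiltrate against pancreatic T cells (337 and 401), 0 to 4 for NOD T cell sites (2), 1110 to 3442 for NK against lymph node T cells (1882), 1 to 18 (5) for the interaction with infiltrate or spleen, and 0 to 24 (0) for that with T cell site.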
